A study of Mus musculus with 12 samples.

Results

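This section describes how multipotent progenitors (MPPs) of mouse bone marrow differed, gene by gene and family by family, when Erg was deleted. The comparison holds 6 of the 12 arrays of the study: 3 of Erg -/- MPPs and 3 of Erg fl/fl MPPs. The members are all 9984 genes that the probe annotation names, each read from its brightest probe set on average over the 12 arrays, and no gene was chosen by its response. Levels are log2 values from RMA, and a difference is the mean of the Erg -/- arrays minus the mean of the Erg fl/fl arrays, so -1 is a level that is lower by a factor of 2.

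Both MPP groups came from male C57Bl/6 mice (at least 6 generations) carrying 2 Erg alleles with loxP sites around exon 11, which encodes the DNA-binding domain. Both groups received pIpC, a synthetic double-stranded RNA and strong inducer of interferon, as 5 injections of 200 µl at 1.5 mg/ml, every 2 days, and were sorted 2 weeks after the first one. The Erg -/- mice also carried Mx1-Cre, whose promoter answers to interferon and which deletes the floxed exon in blood cells among others. The Erg fl/fl mice had no Cre, so an effect of Cre and an effect of Erg loss cannot be told apart. The cells were Lineage-, Sca-1+, c-kit+ and CD150- by the sorting field of the labels, from marrow enriched for cKit+ cells, while the source field names a CD150+CD48- gate for the same samples. The other 6 arrays hold hematopoietic stem cells (HSCs, CD150+CD48-) of Erg +/+ and Erg +/- mice, 3 each. Their labels name no pIpC and attribute the missing allele of the Erg +/- mice to a general Cre deleter line. They enter the fit and serve as a second reference. Each sample started from 20 ng of RNA, which was amplified before 2.5 µg of the cDNA was labelled.

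Erg is an ETS-family transcription factor. ETS factors bind a short GGAA core in promoters and enhancers, and Erg is known for maintaining blood stem and progenitor cells. MPPs are the short-lived progenitors below the stem cell, and single cells among them already lean towards the lymphoid, granulocyte-macrophage or megakaryocyte-erythroid branch. The earliest lymphoid step is visible in transcripts of the surrogate light chain, made of VpreB and lambda 5 (Igll1), which pairs with the immunoglobulin heavy chain before a light chain exists. The granulocyte-macrophage branch shows itself first in granule proteases and their inhibitors.

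Markers of the label were read first, without a test. Flt3, the receptor tyrosine kinase that appears as stem cells become MPPs, was at 9.05, 8.70 and 8.65 in Erg fl/fl MPPs, at 9.29, 9.65 and 9.04 in Erg -/- MPPs and at 6.38, 5.98 and 6.34 in Erg +/+ HSCs. Mmrn1 and Eng, both high in stem cells, were at 4.60 ± 0.391 and 6.42 ± 0.138 (mean ± SD, n = 3) in Erg fl/fl MPPs, against 8.90 ± 0.155 and 10.03 ± 0.231 in Erg +/+ HSCs. On these 3 markers the MPP arrays were clearly apart from cells sorted with the CD150+CD48- gate. Erg itself is not analysed here, nor are Slamf1, Cd48, Kit, Ly6a, Cd34 and Myc, so the deletion was not checked at the targeted gene. Among markers of mature cells, Cd3d of T cells lay between 3.60 and 3.82 and Cd14 of monocytes between 4.39 and 4.90 on the 6 MPP arrays, with both groups overlapping. Other members of their lists were not all alike. Groups were separate for 2 of 13 T and natural killer cell markers with Erg -/- lower and for 1 with Erg -/- higher. Of 14 markers of monocytes, macrophages and dendritic cells, these counts were 0 and 3. Over all genes the shares were 6.1% and 4.36%. The samples were bulk RNA, so fewer cells of a kind and less RNA per cell cannot be told apart in any result below. The labels speak of triplicates for each genotype and do not name separate animals, and the spread that the p-values rest on may therefore be technical.

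Of the 9984 genes, 8 passed an adjusted p of 0.05 (limma, Benjamini-Hochberg over all genes), which is 0.0801%. All 8 were lower in Erg -/- MPPs, and 0 were higher. At an unadjusted p under 0.05 stood 478 genes (4.79%), 357 of them (3.58%) lower and 121 (1.21%) higher. That split was 228 lower and 220 higher after a repeated quantile normalization, and 279 and 158 after median centring, and the median difference of all genes, -0.00395 as deposited, was 0.0451 and 0.0253 there. For 609 genes (6.1%) the 3 Erg -/- values all lay below the 3 Erg fl/fl values, and for 435 (4.36%) all above. With no difference in any gene, an unadjusted threshold of 0.05 passes a share of about 0.05. The order of 3 values against 3 alone gives separate groups in about the same share per direction. Neither total by itself therefore shows a broad response. The 8 genes were Vpreb1 and Igll1 of the surrogate light chain, Mcpt8, Nkg7 and Serpinb1a of granule-bearing cells, and Ifitm1, Fxyd5 and AW112010.

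Of these 8 genes, 7 have an entry in the RefSeq promoter table (build GRCm38.p6), which holds 250 bases before and 50 after the start of each gene. Printed are 4 of them, both surrogate light chain genes, the granule protease Mcpt8 and the surface protein Ifitm1, because they stand for the 3 groups of called genes. Capitals mark the ETS core, GGAA on either strand (TTCC when it lies on the other strand). Each runs 5′ to 3′ along its gene.
Vpreb1: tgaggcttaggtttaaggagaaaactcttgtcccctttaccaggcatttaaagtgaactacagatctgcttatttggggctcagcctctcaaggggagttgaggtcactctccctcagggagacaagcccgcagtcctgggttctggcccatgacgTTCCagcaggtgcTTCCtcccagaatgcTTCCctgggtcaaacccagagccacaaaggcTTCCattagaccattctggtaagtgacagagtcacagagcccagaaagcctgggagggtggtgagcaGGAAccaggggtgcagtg
Igll1: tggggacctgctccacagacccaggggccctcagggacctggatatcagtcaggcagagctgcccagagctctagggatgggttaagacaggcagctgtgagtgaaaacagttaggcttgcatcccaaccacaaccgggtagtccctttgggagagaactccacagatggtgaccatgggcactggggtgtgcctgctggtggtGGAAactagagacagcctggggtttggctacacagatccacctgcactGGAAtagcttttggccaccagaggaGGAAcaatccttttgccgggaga
Mcpt8: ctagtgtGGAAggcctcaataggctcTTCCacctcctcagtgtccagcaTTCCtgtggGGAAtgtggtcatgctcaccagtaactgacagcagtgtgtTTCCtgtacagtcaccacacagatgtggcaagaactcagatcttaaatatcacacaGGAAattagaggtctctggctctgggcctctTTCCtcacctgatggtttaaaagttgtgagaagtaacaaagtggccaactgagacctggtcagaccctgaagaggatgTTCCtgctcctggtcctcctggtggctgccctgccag
Ifitm1: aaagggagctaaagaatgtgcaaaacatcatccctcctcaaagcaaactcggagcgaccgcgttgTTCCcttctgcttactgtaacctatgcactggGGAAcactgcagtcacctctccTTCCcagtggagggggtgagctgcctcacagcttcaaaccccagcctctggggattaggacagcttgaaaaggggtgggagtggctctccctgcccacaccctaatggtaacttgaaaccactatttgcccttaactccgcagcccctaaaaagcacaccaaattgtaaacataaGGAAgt

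The Vpreb1 window is chr16:16869206-16869505, minus strand. That of Igll1 is chr16:16863936-16864235, minus strand, and in the RefSeq table no gene lies between both, so the 2 called surrogate light chain genes are neighbours on the same strand. The Mcpt8 window is chr14:56085148-56085447, minus strand, and that of Ifitm1 is chr7:140967826-140968125, plus strand. The core GGAA occurs 5 times in the Vpreb1 window, 3 times in that of Igll1, 8 times in that of Mcpt8 and 4 times in that of Ifitm1. It is present in 96% of the 32851 promoters of the table, with a median of 3 matches. The longer ETS words CCGGAAGT and CAGGAAGT, present in 3.89% and 3.33% of promoters, occur in 0 of the 7 windows. The EBF word CCCNNGGG, present in 13.7% of promoters, occurs once in the window of Igll1 and once in that of Fxyd5. The E-box CANNTG (72.3% of promoters) occurs in 6 of the 7 windows, all but that of Ifitm1. The interferon response word GAAANNGAA (8.56%) and the GATA word AGATAA (11.2%) occur in 0 of the 7. All words were searched on both strands, and a match says only that the letters are there.

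Vpreb1 showed the widest difference of all genes. Its level was 9.64, 10.09 and 10.61 on the Erg fl/fl arrays and 5.36, 5.41 and 5.32 on the Erg -/- arrays. The lowest control value lay over 4 log2 units above the highest Erg -/- value. The difference was -4.75 ± 0.559 (SE, n = 3 and 3), a level 26.9-fold lower, with an adjusted p of 0.00326 in limma. Igll1 was at 7.95, 7.77 and 8.04 in control MPPs and at 5.95, 6.05 and 6.11 in Erg -/- MPPs. The groups were tight and far apart, with a difference of -1.88 ± 0.173 (SE), or 3.69-fold lower (limma, adjusted p = 0.000441). In Erg +/+ HSCs Igll1 was at 5.74, 5.49 and 5.36, so the Erg -/- MPPs were nearer to HSCs than to control MPPs. Vpreb1 was more uneven in those HSCs, at 8.70, 6.21 and 6.42, and every Erg -/- MPP value was below all 3. Vpreb2, a nearly identical gene, may share probes with Vpreb1, which was not tested.

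**Figure D1:**
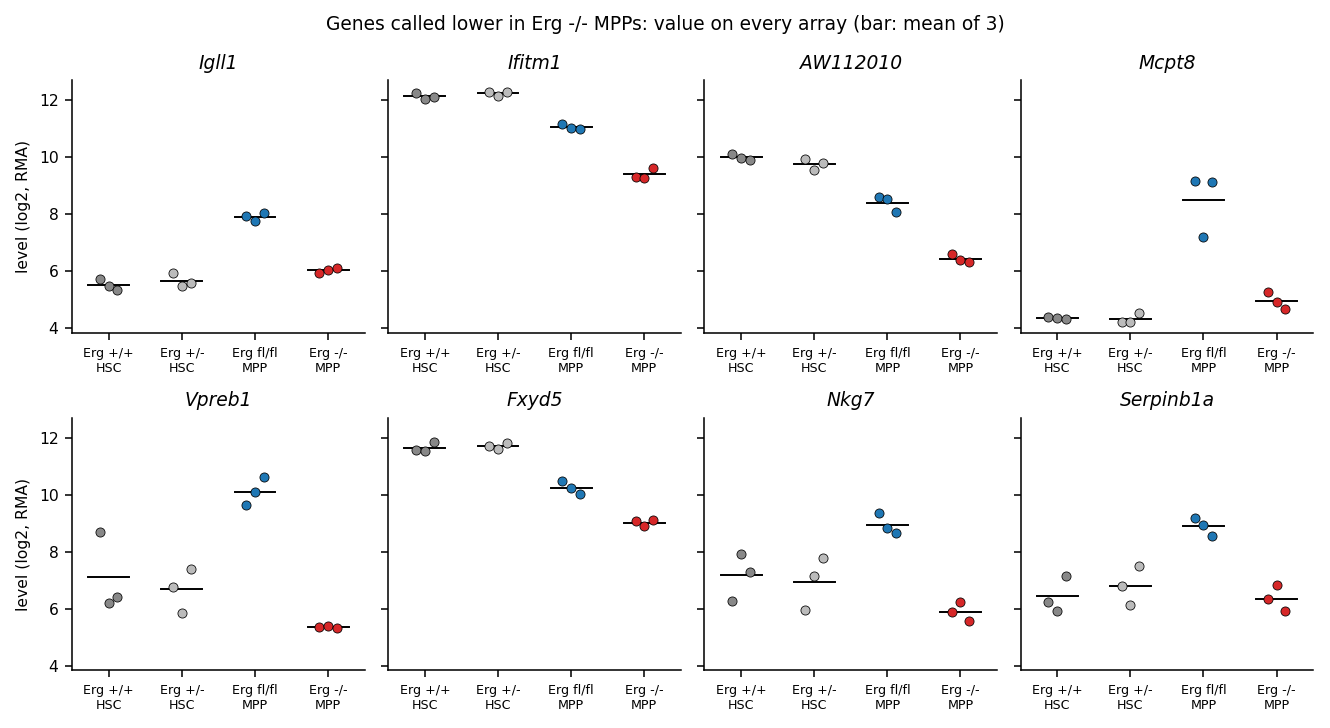
Each panel is 1 of the 8 called genes, with the log2 level on the y axis, the 4 groups on the x axis, a point per array and a bar at the mean of 3 arrays. In all 8 panels the 3 Erg -/- MPP points lie below the 3 Erg fl/fl MPP points; Ifitm1, AW112010 and Fxyd5 are highest in HSCs, whereas Igll1 and Mcpt8 are high in Erg fl/fl MPPs alone.

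The other genes of the B cell list were less uniform. Of 30 listed, 13 were measured, and besides the 2 called genes none passed the adjusted threshold. Ebf1, the transcription factor that commits progenitors to the B lineage and activates both surrogate light chain genes, was at 5.48, 5.43 and 6.11 in controls and at 4.24, 4.47 and 4.63 in Erg -/- MPPs. The groups did not overlap, and the Erg -/- values lay close to those of Erg +/+ HSCs (3.98, 4.30 and 4.27), but the difference of -1.23 ± 0.238 (SE) had an adjusted p of 0.152 in limma. Cd79a, a signalling chain of the B cell receptor, was at 5.02, 5.12 and 5.53 in controls and 4.22, 4.06 and 5.16 in Erg -/- MPPs, where 1 array was within the control range. Bank1, an adaptor of B cell receptor signalling, went the other way, from 5.28, 4.71 and 4.71 to 6.65, 5.87 and 5.95, a difference of 1.25 ± 0.291 (SE) with an adjusted p of 0.366 in limma. Its Erg +/- HSC arrays, at 6.81, 5.80 and 5.99, were all above the Erg +/+ HSC arrays as well. The median difference of the 13 genes was 0.05, beside -0.00395 over all genes, since 7 of the 13 were above 0.

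The early lymphoid list, of genes turned on before B or T cell commitment, had 8 of 28 members measured and shares Ebf1 with the B cell list. Its median difference was -0.47, and 6 of 8 were below 0, 3 of them without overlap (37.5%, beside 6.1% of all genes). Like all lists here, it was chosen with earlier results of these data known, so such shares are a description and not independent support. Besides Ebf1 the lowest was Il12a, the p35 chain of interleukin 12, with 7.55, 7.32 and 7.44 in controls against 6.54, 5.74 and 6.67. Its difference of -1.12 ± 0.376 (SE) did not pass the test (limma, adjusted p = 0.946). Flt3 was the highest of the list, at 0.52 with a 95% interval of -0.02 to 1.06. Its Erg -/- mean was thus above the control mean, unlike those of the surrogate light chain genes. The list median was -0.35 without Erg fl/fl MPP replicate 1. Of T and natural killer cell markers, 13 of 39 were measured. The called one among them was Nkg7, which the granule list below also holds, and the median of the list was -0.01.

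Granule genes formed the second called group. Mcpt8, a serine protease of basophils and their progenitors, was at 9.16, 7.21 and 9.13 in controls and at 5.26, 4.92 and 4.70 in Erg -/- MPPs. The second control array was well below the others and still above every Erg -/- array. The difference was -3.54 ± 0.403 (SE), or 11.6-fold lower, with an adjusted p of 0.0029 in limma. Erg +/+ HSCs had 4.41, 4.38 and 4.34, below all Erg -/- MPP arrays. Nkg7, a protein of cytotoxic and other secretory granules, was at 9.36, 8.82 and 8.66 against 5.89, 6.23 and 5.57. Its difference of -3.05 ± 0.459 (SE) corresponds to 8.27-fold (limma, adjusted p = 0.0274). Serpinb1a, a cytosolic inhibitor of the neutrophil granule proteases, was at 9.17, 8.93 and 8.56 against 6.33, 6.82 and 5.92, a difference of -2.53 ± 0.384 (SE), or 5.78-fold (limma, adjusted p = 0.0274). The groups were far apart for these 2 genes. Erg -/- MPPs were below HSCs for Nkg7 and overlapped them for Serpinb1a, as Erg +/+ HSCs had 6.28, 7.93 and 7.30 for Nkg7 and 6.23, 5.91 and 7.17 for Serpinb1a. For these last 2 genes no setting that left out any 1 MPP array kept the call, with adjusted p up to 0.219 for both and differences of -3.21 to -2.84 and -2.76 to -2.31.

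The list of granulocyte-macrophage progenitor and granule genes (19 of 32 measured) had a median of -0.36. Of the 19, 6 (31.6%) had groups that did not overlap with Erg -/- lower, beside 6.1% of all genes, and 1 with Erg -/- higher. This list too was chosen with earlier results of these data known, so its median and share are a description and not independent support. Next after the 2 called members came Cst7, cystatin F, an inhibitor of granule cathepsins. It was at 7.78, 6.91 and 6.68 in controls and 5.79, 5.46 and 5.18 in Erg -/- MPPs, and did not pass the test with -1.65 ± 0.431 (SE; limma, adjusted p = 0.52). Cebpa, which opens the granulocyte-macrophage branch, differed by -0.65 (95% interval -1.36 to 0.07), and Irf8, which directs it to monocytes and dendritic cells, by -0.52 (-0.99 to -0.05). Differences above 0 were seen for 6 of the 19 (31.6%, beside 49.4% of all genes), among them Slpi (0.29), Cebpe (0.26) and Gfi1 (0.21). Without Erg fl/fl MPP replicate 1 the list median was -0.23, and without replicate 2 it was -0.51. The inhibitor Wfdc17, named after its values were seen because it was lower by over 1 unit, was at 7.67, 7.29 and 8.14 against 6.28, 5.28 and 6.33 (limma, adjusted p = 0.998).

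The lists of mature neutrophils and of monocytes, macrophages and dendritic cells held no called gene. The 8 neutrophil markers measured had a median of 0.00235 and 0 with separate groups in either direction. The 14 markers of monocytes, macrophages and dendritic cells had a median of 0.07, with 0 lower and 3 (21.4%) higher among separate groups, beside 6.1% and 4.36% of all genes. Of 10 mast cell and basophil markers, 1 was called, Mcpt8, and 2 (Mcpt8 included; 20%, beside 3.58% of all genes) were lower at an unadjusted p under 0.05. Ms4a2, the beta chain of the IgE receptor, differed by -0.64 (-1.32 to 0.04), and Hdc, which makes histamine, by -0.37 (-0.80 to 0.07), and neither passed the test. Ms4a2 was at -0.19 without Erg fl/fl MPP replicate 1. Differences above 0 were seen for 4 of the 10, among them Mcpt1 (0.35) and Mrgprb2 (0.32). Groups were separate for 2 of the 10 with Erg -/- lower and for 2 with Erg -/- higher (20% each). The shares of all genes were 6.1% and 4.36%.

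**Figure D2:**
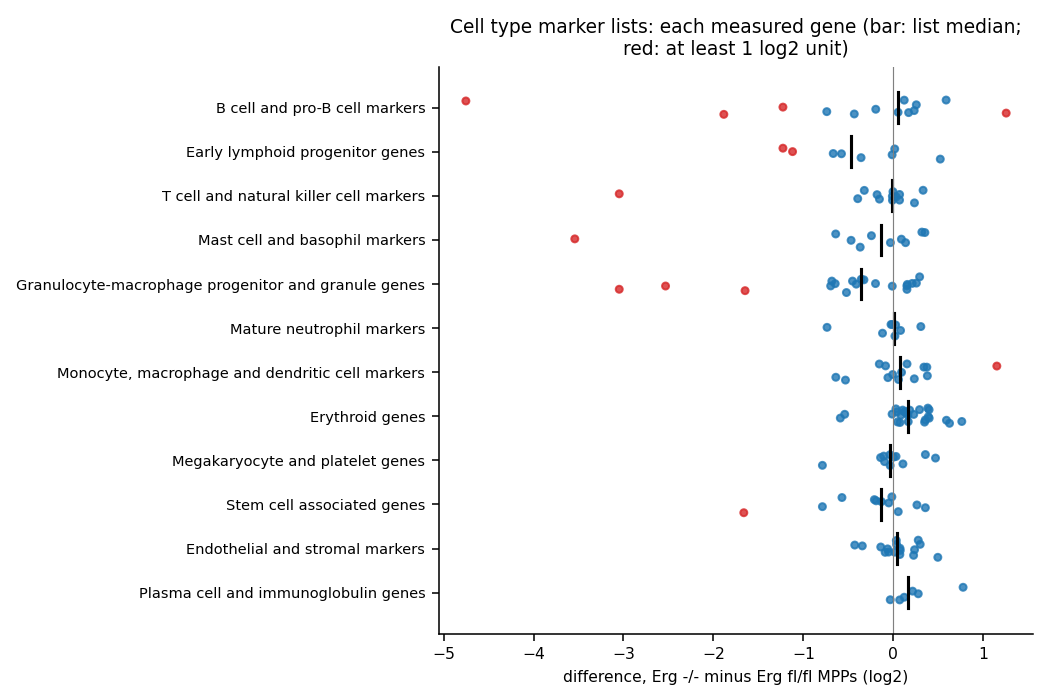
Each row is a list of cell type markers and each point a measured gene, placed on the x axis by its log2 difference, with a bar at the list median and red points at 1 log2 unit or more. Vpreb1, Mcpt8, Nkg7 and Serpinb1a stand out at the left of their lists, while the medians of all 12 lists lie between -0.47 and 0.17, the latter that of 6 plasma cell and immunoglobulin genes.

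The third called group held genes that are highest in stem cells. Ifitm1, an interferon-induced transmembrane protein that stem cells carry without interferon, was at 12.27, 12.06 and 12.11 in Erg +/+ HSCs, at 11.17, 11.04 and 10.98 in Erg fl/fl MPPs and at 9.31, 9.27 and 9.63 in Erg -/- MPPs. The 3 steps did not overlap, and the MPP difference was -1.66 ± 0.155 (SE), or 3.16-fold lower (limma, adjusted p = 0.000441). A second probe set of Ifitm1 gave -2.004 ± 0.162 (SE) and was called too when all 18719 probe sets were tested (limma, adjusted p = 0.00369 for both). AW112010, a transcript named only by a clone identifier and known as interferon-inducible, stood at 10.10, 9.99 and 9.91 in Erg +/+ HSCs, 8.59, 8.54 and 8.07 in control MPPs and 6.61, 6.39 and 6.33 in Erg -/- MPPs. Its MPP difference was -1.96 ± 0.183 (SE), or 3.89-fold lower (limma, adjusted p = 0.000441). Fxyd5, a small membrane protein that modulates the sodium pump and cell adhesion, stepped from 11.56, 11.52 and 11.86 in HSCs to 10.47, 10.23 and 10.04 and then 9.06, 8.90 and 9.11. The difference between the MPP groups was -1.22 ± 0.166 (SE), or 2.33-fold (limma, adjusted p = 0.0124). It is the smallest difference of the 8. Of the 6 settings that left out 1 MPP array, only that without Erg fl/fl MPP replicate 3 kept it, and adjusted p reached 0.0838. By contrast, Igll1, Ifitm1, AW112010, Mcpt8 and Vpreb1 were called in all 6, with adjusted p of at most 0.0315.

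Other stem cell genes were followed in the same way. Of 58 listed, 11 were measured. Mmrn1, a platelet and stem cell matrix protein, was at 4.32, 4.44 and 5.05 in controls and 3.97, 3.82 and 3.64 in Erg -/- MPPs, both far below HSCs, with a difference of -0.79 ± 0.203 (SE; limma, adjusted p = 0.497). Eng, endoglin, a co-receptor of TGF-beta, was at 6.54, 6.45 and 6.27 against 5.99, 5.81 and 5.76, a difference of -0.57 ± 0.166 (SE; limma, adjusted p = 0.681). In both the groups were separate but the test was not passed. Hacd4, Tgm2 and Nupr1, which were each over 1 log2 unit higher in HSCs than in control MPPs, differed between the MPP groups by -0.05, -0.02 and 0.05. The median of the stem cell list was -0.13 with 3 of 11 (27.3%) lower and 2 of 11 (18.2%) higher without overlap, beside 6.1% and 4.36% of all genes.

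Ifitm1 and AW112010 are known as interferon-inducible, and both groups had pIpC, so the interferon list was read beside them. Of 76 listed genes 22 were measured, 0 were called, and their median was -0.06, with 12 below and 10 above 0. Ifit3, an antiviral RNA-binding protein, was at 4.71, 6.12 and 5.26 in controls and 5.98, 6.58 and 6.54 in Erg -/- MPPs, and Ifi27l2a was at 6.37, 7.23 and 6.45 against 7.13, 8.37 and 7.63. These 2 were higher by 1.00 and 1.02 with overlapping groups, and neither passed the test (limma, adjusted p = 0.946 and 0.998). Ifi203, a nuclear DNA-sensing family member, differed by -0.56 with separate groups (limma, adjusted p = 0.946). At an unadjusted p under 0.05, 1 of the 22 genes was lower and 2 of the 22 were higher, beside 3.58% and 1.21% of all genes. Groups did not overlap for 4 of the 22 (18.2%) with Erg -/- lower and for 1 with Erg -/- higher, beside 6.1% and 4.36% of all genes. Of the other Ifitm genes, Ifitm5 differed by 0.37 and Ifitm10 by -0.14. The 21 histocompatibility and antigen presentation genes had a median of -0.04 and 0 calls.

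Next to the called genes came those that the naming rule takes by unadjusted p, 15 per direction with groups that do not overlap. None of these 30 passed the adjusted threshold with the deposited values and all arrays, though Nlrc3, Clec4e, Il1r1, Gimap7, Ttc39b and Airn each did in at least 1 other setting. Among the lower ones were 3 further genes of myeloid and innate immunity. Nlrc3, a Nod-like receptor that restrains signalling in immune cells, was at 5.96, 5.93 and 6.08 in controls and 5.00, 4.96 and 5.03 in Erg -/- MPPs, a difference of -0.99 ± 0.166 (SE; limma, adjusted p = 0.0602). It passed after quantile normalization, with an intensity trend and with array weights, with adjusted p of 0.0299, 0.0423 and 0.0409 in limma. Clec4e, the myeloid lectin Mincle, was at 7.37, 6.20 and 5.32 against 4.19, 3.79 and 4.34, with a wide spread among controls and -2.19 ± 0.397 (SE; adjusted p = 0.109). Without Erg fl/fl MPP replicate 3, its lowest control, Clec4e was at -2.68 and passed (adjusted p = 0.0135). Il1r1, the signalling receptor of interleukin 1, was at 8.29, 7.76 and 7.34 against 6.14, 5.94 and 5.19, with -2.04 ± 0.4 (SE; adjusted p = 0.152). All 3 were at HSC levels or below in Erg -/- MPPs, since Erg +/+ HSCs had 5.10, 5.17 and 4.75, 4.11, 4.77 and 4.04 and 6.45, 6.67 and 7.12 for them. Il1r1 was the only one of 44 cytokine and growth factor receptors with an unadjusted p under 0.05 among lower genes, and the median of these receptors was 0.05.

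Genes of lymphoid cells stood in the same set. Gimap7, a GTPase of lymphocyte survival, was at 5.82, 6.43 and 7.30 in controls and 5.01, 4.96 and 5.23 in Erg -/- MPPs. The difference was -1.45 ± 0.3 (SE; limma, adjusted p = 0.184), and without Erg fl/fl MPP replicate 1, the lowest control, it was -1.80 and passed with an adjusted p of 0.043. Myl10, a myosin light chain first described in precursor lymphocytes, was at 8.03, 7.32 and 7.49 against 6.71, 6.53 and 5.19, with 1 Erg -/- array far below the others. Zeb1, a zinc finger repressor needed in lymphoid and stem cells, was at 8.06, 7.84 and 7.64 against 6.98, 6.75 and 6.95, a difference of -0.96 ± 0.194 (SE; limma, adjusted p = 0.168).

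The remaining 8 lower genes of the set serve varied cell functions, with differences from -1.17 to -0.77. Slco3a1, an organic anion transporter, was at 8.04, 7.91 and 7.67 against 6.65, 6.49 and 6.97, and it was also lower in Erg +/- HSCs, at 7.08, 6.52 and 6.12 against 7.62, 7.92 and 7.72 in Erg +/+ HSCs. Atp11b, a phospholipid flippase, had the smallest standard error of them, at 9.74, 9.71 and 9.64 against 8.84, 9.10 and 8.85. Itpr2, a calcium release channel, was at 7.18, 6.92 and 7.63 against 6.34, 6.47 and 6.05. Tada2a, an adaptor of histone acetyltransferase complexes, differed by -1.01, Rnf103, a ubiquitin ligase of the endoplasmic reticulum, by -1.12, and Rufy1, an endosomal trafficking protein, by -0.89. Tcim and Ccdc186 differed by -1.01 and -1.04. Adjusted p in limma ran from 0.152 for Tcim to 0.416 for Rufy1 among the 8.

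No gene that was higher in Erg -/- MPPs passed the adjusted threshold, and the 15 named by rule are given as values. Ttc39b, a regulator of cholesterol export and lipid synthesis, was at 5.86, 5.70 and 4.80 in controls and 6.88, 7.05 and 6.99 in Erg -/- MPPs. Its HSC levels were 7.96, 7.85 and 7.45, so Erg -/- MPPs lay between control MPPs and HSCs, with a difference of 1.52 ± 0.267 (SE; limma, adjusted p = 0.0892). Airn, the antisense noncoding RNA of the imprinted Igf2r locus, was at 4.70, 4.48 and 4.87 against 6.53, 7.13 and 6.27, a difference of 1.96 ± 0.38 (SE; limma, adjusted p = 0.152), and HSCs had 5.99, 5.62 and 6.63. Whether its probe set reads Airn alone or also its overlapping partner was not tested. Ublcp1, a phosphatase of the proteasome, had the widest difference of them, 4.72, 2.66 and 2.82 against 5.63, 5.92 and 7.14, with a standard error of 0.699 around 2.83 (limma, adjusted p = 0.455).

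Etv5, an ETS factor like Erg, was at 5.77, 5.74 and 5.88 in control MPPs and 6.43, 7.05 and 6.60 in Erg -/- MPPs, a difference of 0.90 ± 0.201 (SE; limma, adjusted p = 0.304). In HSCs the Erg +/- arrays, at 6.78, 7.09 and 7.22, were also all above the Erg +/+ arrays, at 6.58, 6.33 and 6.08. The other ETS genes measured, 11 of them, had differences on both sides of 0. Elf2 and Elf1, widely expressed members, were at -0.47 and -0.35, Etv4 at 0.27, Ets1 at 0.14 and Spic, which directs red pulp macrophages, at 1.15 with a 95% interval of -0.49 to 2.79. The family median was 0.12, with 9 of 12 above 0, beside 49.4% of all genes.

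Among the other higher genes were enzymes of haem, redox and protein breakdown. Hmox1, which breaks down haem, was at 6.11, 5.38 and 5.96 against 6.75, 7.20 and 6.88 (difference 1.13 ± 0.317 SE; limma, adjusted p = 0.645). Prdx4, a peroxiredoxin of the endoplasmic reticulum, was at 7.51, 7.44 and 6.10 against 8.09, 8.42 and 8.39, with 1 control far below the other 2. Ctse, the aspartic protease cathepsin E, was at 7.58, 6.71 and 6.78 against 7.69, 8.65 and 8.60, with 1.29 (limma, adjusted p = 0.657). All 3 had Erg +/+ HSC levels above the control MPPs, at 6.79, 6.96 and 6.96 for Hmox1, 8.64, 8.69 and 8.50 for Prdx4 and 8.40, 8.08 and 8.32 for Ctse. P2ry10, a lysophospholipid receptor of lymphocytes, was at 4.65, 4.02 and 4.14 against 5.68, 5.12 and 5.31, and the same direction stood in HSCs, with 4.08, 4.04 and 4.67 in Erg +/+ and 5.90, 6.56 and 5.56 in Erg +/-. Ces2g, a carboxylesterase, was likewise higher in both populations, by 0.71 in MPPs and by 1.07 in HSCs (limma, adjusted p = 0.468 and 0.0666). The DNA end-binding Xrcc5 (Ku80) differed by 0.95, the endocytic adaptor Cd2ap by 0.80, the thymocyte factor Tox by 0.64, Cobll1 by 0.69 and Mfsd11 by 0.64.

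**Figure D3:**
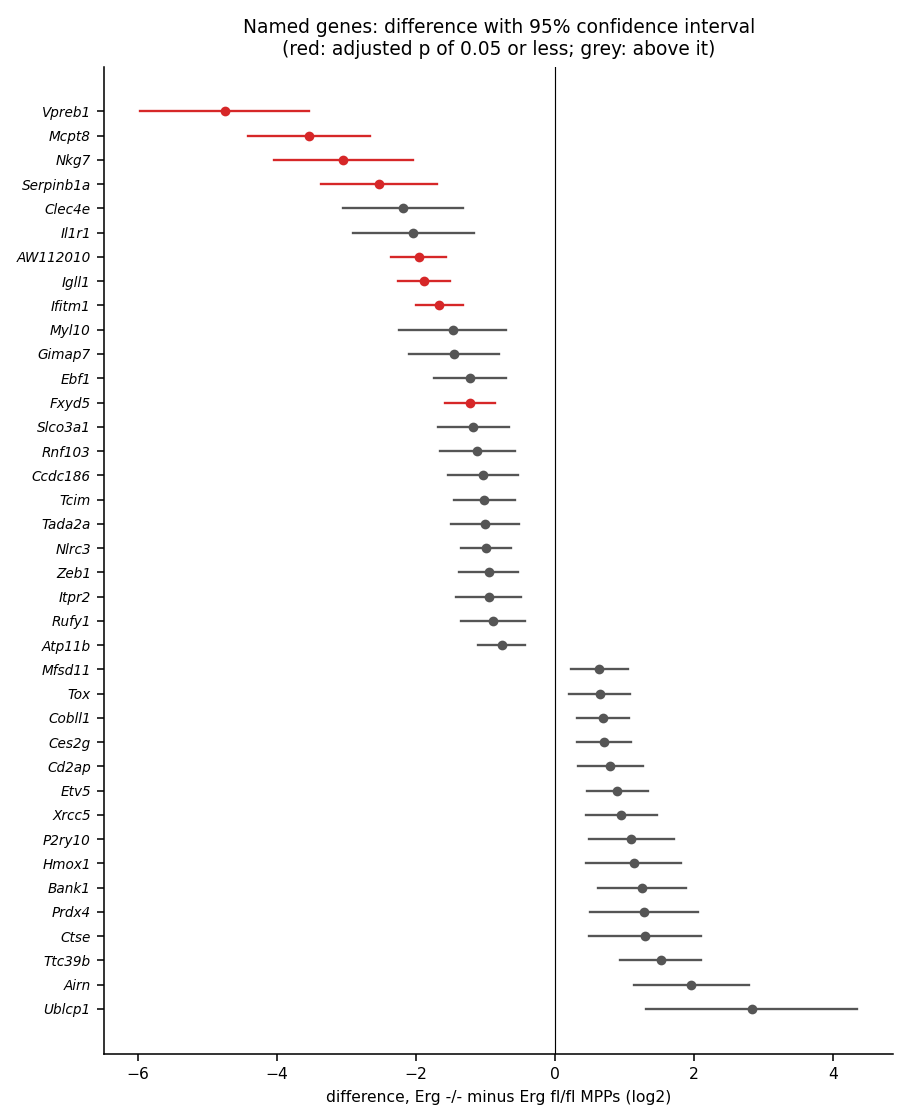
Each row is a gene called or named by rule, with a point at its log2 difference between Erg -/- and Erg fl/fl MPPs and a line for the 95% confidence interval; red marks an adjusted p of 0.05 or less. The 8 red genes are all on the left. Over all rows the order by size is not the order by p. Fxyd5 at -1.22 has a narrow interval and is red, while Clec4e at -2.19 has a wide one and is not.

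By size alone, 63 genes (0.631%) were lower by a factor of 2 or more and 24 (0.24%) higher. Of the 63, 19 were predicted genes, clones, small RNAs or sensory receptors, and of the 24, 7 were. The groups did not overlap in 40 of the 63 and in 11 of the 24, beside 6.1% lower and 4.36% higher over all genes. Both sets were chosen by the size of this same difference, so separate groups are frequent in them by selection. Without Erg fl/fl MPP replicate 1, 41 of the 63 and 19 of the 24 kept a factor of 2. Small nucleolar RNA genes, which guide the modification of ribosomal RNA, made up 8 of the 63. The 39 measured had a median of -0.34 with all arrays and -0.11 without that replicate, when 3 of the 8 kept a factor of 2, and the SD of those 8 over the Erg -/- arrays reached 2.58. Among the 24 higher genes, for Hamp the difference of 1.37 rested on 1 array, with 3.97, 3.56 and 7.24 in Erg -/- MPPs against 3.27, 3.86 and 3.52 in controls. Npn2 did the same (3.52, 4.85 and 8.28 against 4.73, 3.68 and 3.55). These 2 were picked after their values were seen.

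Erythroid genes, 26 of 52 measured, were above 0 in 23 cases (88.5%, beside 49.4% of all genes) and had a median of 0.16, but none was called. Slc4a1, the band 3 anion exchanger of red cells, was at 6.19, 5.99 and 7.16 in controls and 7.10, 7.44 and 7.08 in Erg -/- MPPs, and Alas2, which starts haem synthesis in red cell precursors, at 6.03, 5.81 and 6.21 against 6.72, 6.33 and 6.87. Alas2 alone had an unadjusted p under 0.05 (difference 0.62 ± 0.232 SE; limma, adjusted p = 0.998). Gata1, the master factor of the branch, differed by 0.08 (-0.37 to 0.53). The 3 genes below 0 included Hemgn at -0.59 and Icam4 at -0.54. Groups did not overlap for 4 genes (15.4%) with Erg -/- higher and for 2 (7.69%) with Erg -/- lower. The shares of all genes were 4.36% and 6.1%. The list median was 0.17 without Erg fl/fl MPP replicate 1. Of 11 megakaryocyte and platelet genes only Mmrn1, named above, had an unadjusted p under 0.05, and the list median was -0.04.

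Homeobox genes of the Hox, Meis and Pbx type, several of which keep progenitors immature, were above 0 in 18 of 26 cases, with 5 of 26 (19.2%) above without overlap, beside 4.36% of all genes, and 0 below. Hoxa10 was at 6.63, 6.51 and 6.93 in controls against 7.13, 7.52 and 7.29, a difference of 0.63 ± 0.202 (SE; limma, adjusted p = 0.944). Its levels in Erg +/+ HSCs were 6.88, 7.28 and 7.22. Hoxa9, its neighbour in the cluster and a driver of progenitor growth, was at 7.45, 7.12 and 7.38 against 7.55, 7.53 and 7.66, with 0.26 (-0.24 to 0.76). The family median was 0.13 and moved to 0.04 without Erg fl/fl MPP replicate 1. Runx3, a Runt factor of lymphoid and myeloid cells, was at 7.53, 7.11 and 7.30 against 6.62, 6.46 and 6.48 (-0.79 ± 0.294 SE; limma, adjusted p = 0.998).

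Of the surface and chemokine families that follow, no gene was called. Of 48 CD antigen, SLAM, Ly6 and Fc receptor genes, 6 (12.5%) had an unadjusted p under 0.05 with a lower level and 2 with a higher one, beside 3.58% and 1.21% of all genes. Without Erg fl/fl MPP replicate 1 these were 4 and 1. Cd96, a receptor of T and natural killer cells also found on early progenitors, was at 7.16, 6.47 and 6.44 against 5.05, 5.45 and 5.52 (-1.35 ± 0.355 SE; limma, adjusted p = 0.532), and Cd53, a tetraspanin of leukocytes, at 10.62, 10.10 and 9.42 against 9.78, 8.94 and 8.57 with overlapping groups. The 27 chemokines and their receptors had a median of -0.000525. Within them Ccl3 differed by -1.28 and Xcl1 by -0.94, each with overlapping groups (limma, adjusted p = 0.977 and 0.998). Ccl3 was at -0.76 without Erg fl/fl MPP replicate 1, and Xcl1 at -0.40 without replicate 2. Of 91 G protein-coupled receptors outside the sensory and chemokine families, S1pr3, a receptor of sphingosine 1-phosphate, was lowest, at 6.03, 5.32 and 5.18 against 4.22, 3.81 and 4.78 (-1.24 ± 0.307 SE; limma, adjusted p = 0.455). The 183 solute carriers had a median of 0.03.

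Families of growth and proliferation had medians below 0, and these moved with 1 control array. Medians were -0.23 for 23 mitosis genes (20 below 0), -0.20 for 24 DNA replication genes (21 below 0), -0.19 for 72 nucleolar ribosome biogenesis genes (55 below 0) and -0.13 for 113 splicing and RNA helicase genes (74 below 0). They were -0.12 for 67 general transcription genes, -0.10 for 120 chromatin genes and -0.12 for 47 DNA repair genes. No gene of these 7 lists was called. Over all genes, 5052 of 9984 were below 0. Without Erg fl/fl MPP replicate 1 the same medians were -0.13, -0.06, -0.08, -0.06, -0.02, -0.04 and -0.07. The counts below 0 were then 17 for mitosis, 17 for DNA replication, 44 for nucleolar and 68 for splicing and RNA helicase genes, beside 5349 of all genes.

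The nucleolar list shows this array by array. Its median level was 8.27, 7.43 and 7.72 on the Erg fl/fl arrays and 7.60, 7.57 and 7.54 on the Erg -/- arrays. The first control array was high, the second was below all Erg -/- arrays, and the groups overlapped. The same control had an interquartile range of 2.84 over all probe sets, where the other 5 MPP arrays had 2.505 to 2.636 and the HSC arrays 2.83 to 2.99. Over all genes, the median difference ran from 0.07 in the dimmest decile of genes to -0.16 in the ninth and -0.13 in the brightest. Without that control it was -0.03 in the dimmest, -0.03 in the ninth and -0.05 in the brightest. The part of this array's spread in the lower family medians was not tested beyond these values. Leaving it out also took the genes at an unadjusted p under 0.05 from 357 lower and 121 higher to 225 and 124. Cytosolic ribosomal proteins, bright genes of protein synthesis, had a median of -0.03 in 45 genes, and oxidative phosphorylation genes -0.05 in 64.

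**Figure D4:**
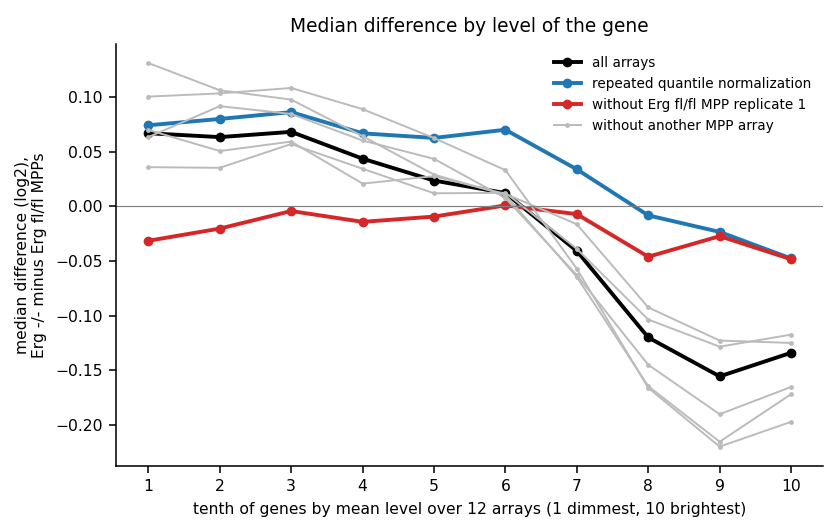
The x axis divides the genes into 10 equal parts by mean level and the y axis gives the median log2 difference between Erg -/- and Erg fl/fl MPPs in each of them, for all arrays (black), without Erg fl/fl MPP replicate 1 (red), after a repeated quantile normalization (blue) and without each other MPP array (grey). The black line falls from 0.07 to -0.16 and the red line stays between -0.05 and 0.00.

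Single genes of these families had separate groups with all arrays. Groups were separate with Erg -/- lower for 8 of 72 nucleolar genes (11.1%) and 6 of 67 general transcription genes (8.96%). They were separate with Erg -/- higher for 2 and 1. Among all genes, 122 of 998 in the ninth decile of level and 124 of 999 in the brightest were lower without overlap. Whether these families hold more such genes than others of like level was not tested. Mphosph10, a component of the small subunit processome, was at 8.40, 7.71 and 7.93 against 7.25, 7.48 and 7.23 (-0.69 ± 0.206 SE; limma, adjusted p = 0.735), and Gnl3, nucleostemin, at 9.89, 9.39 and 9.33 against 9.12, 9.11 and 8.92. Among general transcription genes 4 members of TFIID and SAGA type complexes are given as values, with Taf4b at -0.95, Taf9b at -0.97, Taf12 at -0.73 and Supt20 at -0.57, all with separate groups and none called (limma, adjusted p = 0.515, 0.944, 0.976 and 0.946). Without Erg fl/fl MPP replicate 1 these differences were -0.74, -0.85, -0.49 and -0.50. Top2a, the topoisomerase of dividing cells, was at 5.08, 5.52 and 6.05 against 5.44, 3.18 and 3.73 with overlap. Of 34 apoptosis and p53 pathway genes, 5 (14.7%, beside 3.58% of all genes) had an unadjusted p under 0.05 and were lower, and without Erg fl/fl MPP replicate 1 it was 1, while the list median went from -0.13 to -0.05. Among the 5 were Btg2 (-0.95), a p53-induced brake on division, the apoptosome scaffold Apaf1 (-0.57), the caspase 8 regulator Cflar (-0.76) and the inflammatory caspase Casp1 (-0.61). A second probe set of Cflar read -0.35. In DNA repair, Prkdc, the kinase that works with the Ku proteins, was at -0.48 while its partner Xrcc5 was at 0.95.

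**Figure D5:**
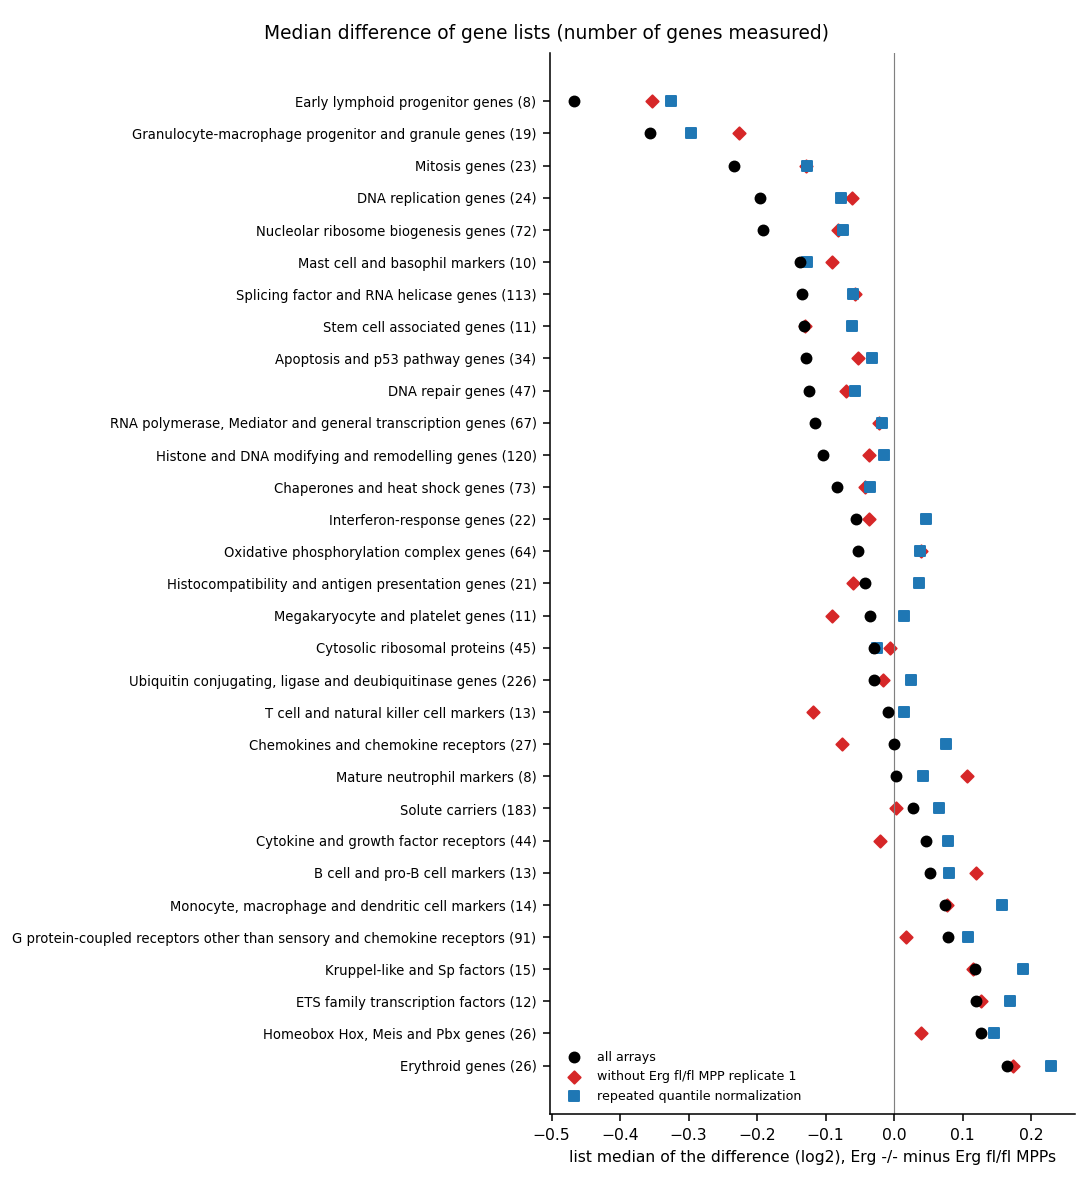
Each row is a gene list with the number of its genes measured, and the x axis is the list median of the log2 difference between Erg -/- and Erg fl/fl MPPs, for all arrays (black circles), without Erg fl/fl MPP replicate 1 (red diamonds) and after a repeated quantile normalization (blue squares). In this order the medians are -0.47, -0.35 and -0.33 for early lymphoid genes and -0.36, -0.23 and -0.30 for granule genes, while those of mitosis, replication and nucleolar genes move from -0.23, -0.20 and -0.19 to between -0.13 and -0.06.

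The difference in MPPs was then set against that between Erg +/- and Erg +/+ HSCs, by a test of the difference of both effects. Of the 9984 genes 2 passed (0.02%), both already called in MPPs, and 387 (3.88%) had an unadjusted p under 0.05. Igll1 differed by -1.88 in MPPs and by 0.15 in HSCs, a difference of effects of -2.04 ± 0.244 (SE; limma, adjusted p = 0.0157). Ifitm1 differed by -1.66 in MPPs and by 0.09 in HSCs, a difference of effects of -1.75 ± 0.219 (SE; limma, adjusted p = 0.0157). Igll1 has a low level in HSCs of either genotype, whereas Ifitm1 is at its highest there, at 12.30, 12.14 and 12.28 in Erg +/- HSCs. Cell type, number of alleles lost, Cre and pIpC all differ between both effects and cannot be told apart. Both calls were lost in 7 of the 12 settings that left out 1 array, with adjusted p up to 0.0777 and differences of effects of -2.07 to -1.90 for Igll1 and -1.73 to -1.68 for Ifitm1 in those 7. Among MPPs these arrays were the first Erg fl/fl and the first and the second Erg -/- array. Among HSCs they were replicates 2 and 3 of Erg +/+ and, for Erg +/-, replicates 1 and 3. For the other 6 genes called in MPPs, the adjusted p of the difference of effects ran from 0.0554 for AW112010 to 0.409 for Nkg7, so a difference between the populations was not shown for them.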

How the data were processed

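Expression was measured on 12 one-colour Affymetrix arrays, 3 per group. The deposited values are log2 levels per probe set. The tools RMA and affy appear, without versions, in the submitters' processing notes. RMA corrects background, gives arrays a like distribution and summarises probes, which makes a difference relative to most probe sets and compresses dim genes. No source used here says which arrays were normalized together. Arrays carry no read depth, and their number limits the precision.

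Of 18719 probe sets, 10657 had 1 gene symbol, 523 several and 7539 are unnamed here. Each of the 9984 genes was read from its brightest probe set (364 had more than 1). The RefSeq table (GRCm38.p6) holds 9933 of their identifiers. For the array, the build is not given in sources used here. Groups followed the genotype labels. All 12 arrays entered 1 group-means model in limma 3.58.1 under R 4.3.3, which had 8 residual and 4.35 prior degrees of freedom. Tests were two-sided, adjusted over 9984 genes by Benjamini-Hochberg at 0.05, without a filter on dim genes. The fit was also run on simulated data with independent noise for each gene and array. Those data held no array-wide deviation, so they say nothing about the effect of single arrays on the calls. The 72 gene lists were only described, by counts and medians.

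The comparison and lists were chosen with earlier results of these data known. The text names all called genes, then per direction the 15 smallest unadjusted p with separate groups (sensory receptors, small RNAs, clones and predicted genes aside), up to 4 genes per list, and some list members after their values were seen. Other settings were filters at the 25th or the 50th percentile of level, a replicate block, the mean of probe sets, all probe sets, repeated quantile normalization, median centring, an intensity trend, array weights, only the MPP arrays and each array left out. Leaving out the 2 arrays of lowest weight was added after seeing the data.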

Additional observations from a re-analysis of the deposited data

Results flagged for a closer look

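Igll1 and Ifitm1 are given here because their effects differed between the populations by a test of the difference itself. The effect of Erg loss in MPPs minus the effect of 1 missing allele in HSCs was -2.04 log2 units for Igll1 and -1.75 for Ifitm1 (limma, adjusted p = 0.0157 for both). In every one of the 3 Erg -/- MPP arrays both genes were below every Erg fl/fl MPP array. Both had been called lower on these same arrays, so this separation adds no support for a difference between the populations. Igll1 was already low in HSCs of either genotype, which left little room for a lower level there. No test for single outlying arrays was run, but each array was left out in turn. Both calls of the difference of effects were lost in most of those settings, as given above.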

How the results depend on the processing

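The count of 8 lower genes was 8 or 9 with a filter at the 25th percentile, the mean of probe sets, median centring, an intensity trend, array weights and a repeated quantile normalization, 7 with a filter at the 50th percentile, which left out Mcpt8, and 7 with only the MPP arrays. With all deposited probe sets tested, 6 probe sets were called, 2 of them of Ifitm1. The count of lower genes was 4 without the 2 arrays of lowest weight (Vpreb1, Igll1, Ifitm1 and AW112010), 5 to 7 with 1 MPP array left out and 7 to 10 with 1 HSC array left out. A higher gene was called after quantile normalization (1, Ttc39b), and with only the MPP arrays or without Erg +/- HSC replicate 3 (1 each, Airn). Genes lower at an unadjusted p under 0.05 were 228 after quantile normalization, 229 without the 2 arrays and 225 to 391 with 1 MPP array left out. Higher ones were 54 with the 50th percentile filter, 188 with all probe sets, 220 after quantile normalization, 119 to 172 with 1 MPP array left out and 113 to 127 with 1 HSC array left out. Groups did not overlap for 655 genes with the 50th percentile filter, 1776 of all probe sets and 1831 to 2259 genes with 1 MPP array left out, since fewer arrays overlap less often. The cause of the other shifts was not tested. The difference of effects gave 4 genes with an intensity trend, 1 with the replicate block, 1 without the 2 arrays and 0 to 3 with 1 array left out.

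Replicate numbers did not pair the MPP arrays (r of deviations between same-numbered arrays from -0.0852 to 0.0862). With the replicate block 9 genes were called in MPPs: Fxyd5 was lost (adjusted p = 0.0801) and Il1r1 (0.0155) and the clone-named F630028O10Rik were added. Not every array correlated best with its own number. No named gene followed through the settings changed sign, whereas 13 of 31 list medians, which lay between -0.06 and 0.08, did under at least 1 setting. Dim genes have compressed differences, and 3 arrays per group limit what can be called.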
